A study of Rattus norvegicus with 12 samples.

Results

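The genes described here are keratins and other genes of the basal, myoepithelial and epidermal programs of the rat mammary gland. Of 43 genes named for this set, 35 had an array probe set annotated with their symbol alone and were measured, out of 14506 genes with such a probe set. Where a gene had several such probe sets, the one with the highest mean intensity was used. They are 4 luminal keratins, 3 basal keratins, 6 contractile genes, 4 epidermal genes, 6 desmosome genes, 6 genes of adhesion to the basement membrane, 5 regulators and the protease gene St14. Krt5 shares its probe set with Krt75, and no probe set was annotated to Lor, Sprr1a, Sfn, Dsg2, Dsg3, Dsp or Cdh3, so these 8 genes are not analysed here. All 12 rats were female Lewis rats, ovariectomized as young adults, and each group held 3 rats. The groups received E2 (17β-estradiol, 4 µg per kg per day) together with 3-MC (3-methylcholanthrene, 15 mg per kg per day), E2 alone at that dose, 3-MC alone at that dose, or the vehicle. There were 3 subcutaneous treatments, a time of 48 h by the sample labels, and the glands were taken 24 h after the last one. RNA was extracted from whole glands, so epithelium, fat, vessels, nerve and immune cells were measured together, and fewer cells of a type and less RNA per cell cannot be told apart.

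A mammary duct has an inner layer of luminal epithelial cells, which contain the keratin filaments of simple epithelia, and an outer basal layer of myoepithelial cells. The basal cells contain keratins that the basal layer of the epidermis also makes, and in addition the actin and myosin machinery of smooth muscle, with which they eject milk in response to oxytocin. Keratins form filaments as pairs of 1 type I and 1 type II protein, and desmosomes and hemidesmosomes anchor these filaments to neighboring cells and to the basement membrane. The transcription factor p63 is required for the basal layer. Estradiol acts through estrogen receptors that in the mammary epithelium are found mainly in luminal cells, and 3-MC is a ligand of the aryl hydrocarbon receptor. The comparisons ask how each compound alone, and 3-MC on top of E2, related to the levels of these genes.

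Intensities are linear array signals, and changes are differences of log2(intensity + 16) between group means with their standard error (SE). A gene was said to rise or fall when the Benjamini-Hochberg adjusted p of limma, taken over 23371 probe sets, was under 0.05 and the difference was at least 1.5-fold. The levels of 2 genes are not compared, since probe sets differ in their response. Array medians ran from 85.7 to 109.5, and the lowest correlation between any 2 arrays was 0.952 over all probe sets. Luminal epithelium was present by all 13 of its marker genes that do not belong to the set. Skeletal muscle transcripts, from 12 genes, varied most within groups, with summed intensities of 725 to 2331 in E2 + 3-MC rats, 1174 to 7331 in E2 rats, 570.0 to 28796 in 3-MC rats and 520.3 to 39574 in vehicle rats. The part of this tissue in the results was not tested. With 3 rats a group, exact two-sided permutation reaches no p under 0.1, so the tests across all probe sets were used.

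With E2, 8 of the 33 genes that passed the filter on low signals rose and 0 fell relative to vehicle, while of all probe sets tested 1.3% rose and 0.287% fell. The 8 genes were Krt14, Krt15, Krt17, Krt18, Lgals7, Dsc2, Egr2 and St14, with changes of 0.65 to 1.46. At an unadjusted p under 0.05, 17 genes were higher and 0 lower (6.82% and 4.89% of all probe sets), and in 17 genes every E2 rat was above every vehicle rat (10.1% of all probe sets), and in 0 below (8.05%). The median change over the 35 measured genes was 0.30, against 0.02 over all probe sets tested. The methods' t-test after adjustment gave 0 of the 33 genes and 7 of all probe sets, and a limma test against the 1.5-fold limit itself (treat) gave 0 and 24. The count rested on single rats, being 0 without E2 rat 2, 1 without E2 rat 1, 1 without vehicle rat 1, 2 without vehicle rat 2 and 4 without vehicle rat 3. Over all probe sets the same omissions gave 89, 116, 172, 225 and 392 calls, against 370 with all rats. Dsc3 and Krt1 lay below the filter and were not tested. Of the 13 luminal epithelium markers outside the set, 6 rose with E2 and 0 fell, with a median change of 0.63, and all 6 measured mitosis genes rose, with a median of 1.96. The medians were -0.34 for adipocyte, -0.48 for fibroblast and -0.48 for endothelium markers. The part of tissue composition in the results was not tested.

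**Figure D1:**
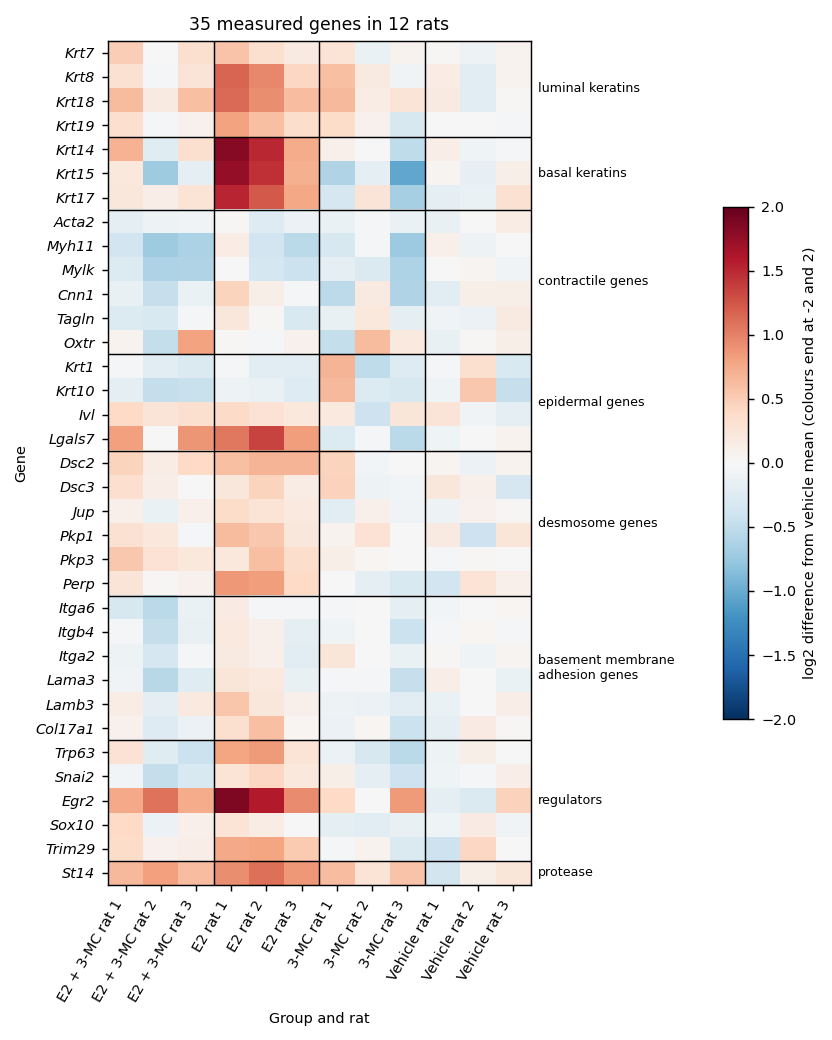
Log2 difference of each of the 35 measured genes (rows, grouped by class) from the vehicle mean in each of the 12 rats (columns, E2 + 3-MC, E2, 3-MC and vehicle), as color from -2 (blue) to 2 (red). The largest differences, 1.47 to 1.86, are those of Egr2, Krt14 and Krt15 in E2 rats 1 and 2 and of Krt17 in E2 rat 1, and the contractile genes show no red block there.

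The basal keratins Krt14, Krt15 and Krt17 all rose with E2, by 2.56-fold, 2.48-fold and 2.26-fold, and none of them differed from vehicle past the threshold in rats given 3-MC as well. They are type I keratins, encoded close together on chromosome 10 of the GRCr8 assembly, with Krt15 at chr10:85567197-85571014, Krt14 at chr10:85638182-85642450 and Krt17 at chr10:85679068-85683792. Krt14, a partner of Krt5 in the basal layer of stratified epithelia, had intensities of 543, 275 and 414 in E2 + 3-MC rats 1, 2 and 3, 1210.5, 963 and 561 in E2 rats, 357, 327 and 226 in 3-MC rats and 363, 308 and 319 in vehicle rats. All E2 rats lay above all rats of the other groups, rat 1 highest and rat 3 lowest. E2 raised it by 1.36 ± 0.27 (SE, n = 3 rats per group, adjusted p = 0.0272).

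Krt15, a keratin of basal epithelial and hair follicle stem cells, showed the same order of the 3 E2 rats. Its intensities were 741, 385 and 558 in E2 + 3-MC rats, 2205, 1799.9 and 1053 in E2 rats, 415, 562 and 304 in 3-MC rats and 665, 569.6 and 693 in vehicle rats. Again no rat of another group reached the lowest E2 rat, and the 3-MC rats all lay below the vehicle rats. Against vehicle, the change with E2 was 1.31 ± 0.28 (SE, adjusted p = 0.0358) and that with 3-MC alone -0.61 ± 0.28 (SE, adjusted p = 0.92), which did not pass.

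Krt17, a keratin of basal cells and of epidermis under repair, had 189, 175 and 195 in E2 + 3-MC rats, 488, 392 and 284 in E2 rats, 122, 192 and 94.5 in 3-MC rats and 139, 144 and 199 in vehicle rats. The E2 rats again stood apart from the other 9, and the E2 + 3-MC rats, which differed little among themselves, overlapped the vehicle rats. The change with E2 was 1.18 ± 0.23 (SE, adjusted p = 0.0221). The adjusted p values of the 3 basal keratins passed 0.05 when some rats were left out. For Krt14 it was 0.0566 to 0.135 without vehicle rat 1, 2 or 3 or E2 rat 1 or 2, for Krt15 0.0576 to 0.182 without any of those rats or E2 + 3-MC rat 3, and for Krt17 0.0713 to 0.118 without vehicle rat 1 or 2 or E2 rat 1 or 2. The size of the change stayed above 1.0 for these 3 genes under all alternatives tried. The proteins are similar in sequence, and cross-hybridization between their probe sets was not tested.

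**Figure D2:**
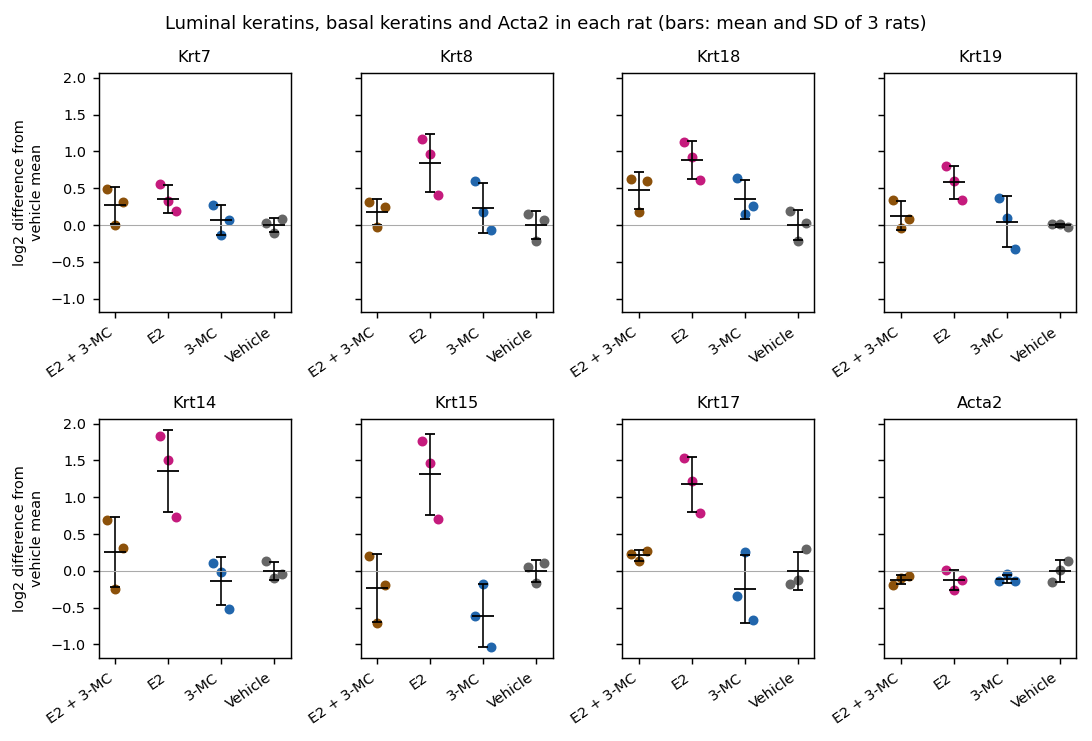
Log2 difference from the vehicle mean (vertical axis) of the 4 luminal keratins, the 3 basal keratins and Acta2 in each rat (points) of the E2 + 3-MC, E2, 3-MC and vehicle groups, with the mean and SD of 3 rats as bars. In the panels of Krt14, Krt15 and Krt17 the 3 E2 points lie above all other points, and in the panel of Acta2 the groups overlap.

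Among the luminal keratins only Krt18 passed with E2, and the other members differed in the same direction without passing. Krt8 (type II) and Krt18 (type I) form the filament pair of simple epithelia, and both genes lie on chromosome 7, Krt8 at chr7:135002886-135010339 and Krt18 at chr7:135036168-135039844. Krt18 had intensities of 1521, 1109 and 1492 in E2 + 3-MC rats, 2153, 1868 and 1504 in E2 rats, 1534, 1083 and 1169 in 3-MC rats and 1112, 841 and 992 in vehicle rats. All E2 rats exceeded all vehicle rats, but E2 rat 3 lay below E2 + 3-MC rat 1 and 3-MC rat 1. E2 rats differed from vehicle rats by 0.89 ± 0.18 (SE, 1.85-fold, adjusted p = 0.0289), and 2 further Krt18 probe sets passed with changes of 0.82 and 0.85. The adjusted p was 0.0510 to 0.148 without vehicle rat 1, 2 or 3 or E2 rat 1 or 2.

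Its partner Krt8 had 432, 341 and 415 in E2 + 3-MC rats, 799.8, 689 and 466 in E2 rats, 531, 392 and 329.6 in 3-MC rats and 385, 295 and 365 in vehicle rats. The E2 rats were above the vehicle rats without overlap, while 3-MC rat 1 lay above E2 rat 3. For E2 against vehicle this was a difference of 0.85 ± 0.21 (SE, adjusted p = 0.0648), and a second Krt8 probe set differed by 0.64 (adjusted p = 0.148). Krt8 passed in some other settings, with an adjusted p of 0.0301 without E2 rat 3 and 0.0409 without 3-MC rat 1.

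Krt19, a type I keratin that lacks the tail domain, had 971, 739.7 and 808 in E2 + 3-MC rats, 1336, 1166 and 972 in E2 rats, 986, 813 and 607 in 3-MC rats and 767, 769 and 750.0 in vehicle rats. It differed by 0.58 ± 0.18 with E2 (SE, adjusted p = 0.148). Krt19 lies next to Krt15, at chr10:85576235-85580952, within the same cluster as the basal keratins that rose. Krt7, a type II keratin of simple epithelia, had 174, 118 and 151 in E2 + 3-MC rats, 183, 152 and 137 in E2 rats, 147, 107 and 125 in 3-MC rats and 121, 109.2 and 126 in vehicle rats. Its difference with E2 was 0.36 ± 0.16 (SE, adjusted p = 0.394), the smallest of the 4. For both genes the E2 rats were above the vehicle rats without overlap, and E2 rat 3 was lower than E2 + 3-MC rats 1 and 3 in Krt7 and only slightly higher than E2 + 3-MC rat 1 in Krt19.

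The sequences around the start sites of Krt8 and Krt18 are shown because their proteins pair and their levels were high in the same E2 rats. RefSeq promoter windows on GRCr8, from 250 bases before to 50 bases after the start, were at hand for 26 of the 43 genes, 20 of them measured. Capitals mark exact matches, on either strand, to the TATA box TATAAA, the core of the aryl hydrocarbon receptor site GCGTG and the estrogen receptor half-site GGTCA. They also mark the AP-1 site TGANTCA (N, any base) and the CArG box CCWWWWWWGG of serum response factor (W, A or T). Sequences that depart from a motif were not counted. A match is a description of letters and shows no binding.
Krt8, chr7:135010290-135010589, minus strand: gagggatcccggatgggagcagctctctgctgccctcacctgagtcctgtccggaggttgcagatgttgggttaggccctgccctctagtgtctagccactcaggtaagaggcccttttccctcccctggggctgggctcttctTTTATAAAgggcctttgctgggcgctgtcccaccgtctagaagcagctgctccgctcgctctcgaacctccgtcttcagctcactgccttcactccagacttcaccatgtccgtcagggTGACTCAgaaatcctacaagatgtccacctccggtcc
Krt18, chr7:135035918-135036217, plus strand: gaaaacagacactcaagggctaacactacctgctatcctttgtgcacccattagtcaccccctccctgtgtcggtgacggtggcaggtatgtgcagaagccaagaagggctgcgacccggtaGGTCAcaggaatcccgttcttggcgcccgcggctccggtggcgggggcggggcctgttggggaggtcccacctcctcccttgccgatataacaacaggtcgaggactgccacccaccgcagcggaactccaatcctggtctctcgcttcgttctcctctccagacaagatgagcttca
The Krt8 window holds 2 overlapping TATAAA matches on opposite strands, the first starting at position -106, and 1 TGANTCA match at position 13. The Krt18 window holds 1 GGTCA match at position -128 and none of the other motifs. Of 33469 promoter windows of 300 bases, 14.2% hold TATAAA, 29.7% GCGTG, 40.5% GGTCA, 7.33% TGANTCA and 1.64% a CArG box. Among the 26 windows of this gene set the numbers were 4, 11, 9, 6 and 1. The windows of Krt7, Krt14, Krt15, Krt17, Krt19 and St14 were not used here.

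None of the 6 contractile genes passed with E2, in contrast to the basal keratins, and the changes of the contractile genes ranged from -0.27 to 0.18. Which cells gave the keratin signals was not tested. Acta2, smooth muscle alpha-actin, had intensities of 3982, 4229 and 4303 in E2 + 3-MC rats, 4588, 3789 and 4161 in E2 rats, 4123, 4391 and 4115 in 3-MC rats and 4092, 4557 and 5001 in vehicle rats. All 4 groups overlapped, and the highest values were those of vehicle rats 2 and 3 and E2 rat 1. The change with E2 was -0.12 ± 0.12 (SE, 95% interval -0.38 to 0.14, adjusted p = 0.794), so that a rise of the size seen for the basal keratins lies outside the interval. Vascular smooth muscle also contains Acta2, Myh11, Cnn1 and Tagln, and the part of each cell type in these signals was not tested.

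Myh11, the smooth muscle myosin heavy chain, had 734, 582 and 616 in E2 + 3-MC rats, 1069.6, 736 and 664 in E2 rats, 771, 949 and 578 in 3-MC rats and 1036, 898 and 972 in vehicle rats. E2 rat 1 was the highest of all rats and E2 rats 2 and 3 were below all vehicle rats, and the E2 + 3-MC rats lay below the vehicle rats without overlap. The change with E2 was -0.26 (95% interval -0.68 to 0.17) and that with E2 + 3-MC against vehicle -0.58 (unadjusted p = 0.0109, adjusted p = 0.408). Mylk, the kinase that activates smooth muscle myosin, had 269, 209 and 210.3 in E2 + 3-MC rats, 327, 254 and 239 in E2 rats, 285, 267 and 208 in 3-MC rats and 332, 342 and 312 in vehicle rats. Each rat given 3-MC, with or without E2, lay below the lowest vehicle rat. Mylk differed by -0.27 with E2 (95% interval -0.60 to 0.07), by -0.37 with 3-MC (unadjusted p = 0.0345, adjusted p = 0.92) and by -0.50 with E2 + 3-MC (unadjusted p = 0.00687, adjusted p = 0.389).

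Cnn1, the actin-binding protein calponin, had 943, 759 and 957 in E2 + 3-MC rats, 1437, 1135 and 1027 in E2 rats, 722, 1194 and 682 in 3-MC rats and 894, 1135 and 1135 in vehicle rats. Tagln, the actin-binding protein transgelin, had 798, 779 and 939.9 in E2 + 3-MC rats, 1129.7, 980.4 and 775 in E2 rats, 869.9, 1113 and 842 in 3-MC rats and 922, 886 and 1096 in vehicle rats. Oxtr, the oxytocin receptor through which milk ejection is triggered, had 404, 272 and 679 in E2 + 3-MC rats, 392, 376 and 409 in E2 rats, 271, 603 and 441 in 3-MC rats and 345, 391 and 419.7 in vehicle rats. All 3 overlapped between E2 and vehicle rats, and Oxtr varied most in the groups given 3-MC. The changes with E2 were 0.18 for Cnn1 (95% interval -0.26 to 0.62), -0.02 for Tagln (-0.37 to 0.33) and 0.03 for Oxtr (-0.59 to 0.65).

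Of 13 further genes of the contractile apparatus, 12 were measured and 0 passed with E2 in limma. At an unadjusted p under 0.05, 1 was higher and 1 lower (6.82% and 4.89% of all probe sets). These were Actg2, smooth muscle gamma-actin, with 1018 ± 106 in E2 rats and 717 ± 174 in vehicle rats (intensity, SD, n = 3 each, change 0.52, adjusted p = 0.193), and Des, the muscle intermediate filament protein desmin, with 188 ± 60.8 in E2 rats and 708 ± 515 in vehicle rats (change -1.58, adjusted p = 0.18). The median over the 12 was -0.10. Des is also a skeletal muscle gene, and its values varied widely among the vehicle rats. Markers of pericytes and vascular smooth muscle had a median change of -0.37 over 7 genes with E2, 1 of which fell (Abcc9, a potassium channel subunit, -0.69, adjusted p = 0.0394), and summed to 2554 to 3491 in E2 + 3-MC rats, 2968 to 3196 in E2 rats, 3467 to 4380.1 in 3-MC rats and 3883 to 4571 in vehicle rats.

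Taken as medians of a class, the change with E2 was 1.31 for the 3 basal keratins, 0.71 for the 4 luminal keratins and -0.07 for the 6 contractile genes. A rat's class level was the median, over the genes of the class, of the log2 difference between that rat and the mean of the vehicle rats. For basal keratins it was 0.23, -0.25 and 0.27 in E2 + 3-MC rats, 1.76, 1.47 and 0.74 in E2 rats, -0.34, -0.01 and -0.66 in 3-MC rats and 0.05, -0.13 and 0.11 in vehicle rats. The basal keratin level minus the contractile level was 0.46, 0.22 and 0.37 in E2 + 3-MC rats, 1.67, 1.61 and 0.96 in E2 rats, -0.08, -0.09 and -0.26 in 3-MC rats and 0.16, -0.14 and -0.01 in vehicle rats. Every E2 rat thus had a wider gap between these classes than any other rat, and the difference between classes was described and not tested. Basal minus luminal keratins was 0.80, 0.70 and 0.36 in E2 rats and 0.06 at most in the other 9 rats.

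**Figure D3:**
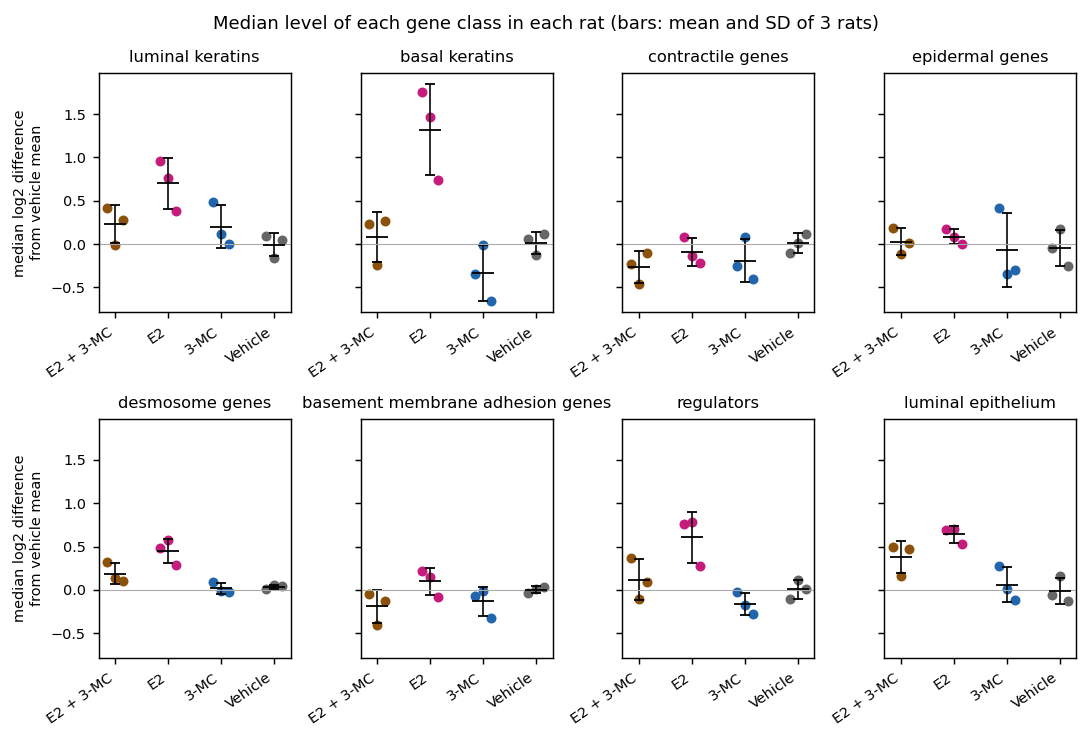
Median log2 difference from vehicle (vertical axis) over the genes of each class in each rat (points) of the E2 + 3-MC, E2, 3-MC and vehicle groups, with the mean and SD of 3 rats as bars. The E2 points lie at 0.74 to 1.76 for basal keratins and around 0 for contractile genes, and the panel of luminal epithelium shows 13 marker genes that are not in the gene set.

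Among the epidermal genes, Lgals7 rose with E2 while Krt10 and Ivl, the only others that could be tested, did not pass. Lgals7 encodes galectin-7, a sugar-binding protein of stratified epithelia. Its intensities were 1479.8, 823 and 1550.4 in E2 + 3-MC rats, 1743, 2154 and 1497 in E2 rats, 686, 808 and 567 in 3-MC rats and 782, 835 and 876 in vehicle rats. All E2 rats lay above all vehicle and 3-MC rats, E2 + 3-MC rats 1 and 3 lay near the lowest E2 rat, and E2 + 3-MC rat 2 lay among the vehicle rats. Its rise with E2 was 1.08 ± 0.22 (SE, 2.12-fold, adjusted p = 0.0275), with an adjusted p of 0.0706 to 0.152 without vehicle rat 1 or 2 or E2 rat 1 or 2. With E2 + 3-MC it differed from 3-MC alone by 0.85 ± 0.22 (SE, adjusted p = 0.411), and by 1.14 (adjusted p = 0.0249) without E2 + 3-MC rat 2.

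Krt10, a keratin of cells above the basal layer of the epidermis, had 71.0, 55.7 and 57.3 in E2 + 3-MC rats, 76.8, 75.1 and 67.0 in E2 rats, 139, 66.5 and 63.5 in 3-MC rats and 77.7, 129 and 56.7 in vehicle rats. Its highest values were single rats, 3-MC rat 1 and vehicle rat 2, and its change with E2 was -0.17 (95% interval -0.73 to 0.39). Krt1, the epidermal partner of Krt10, ran from 17.4 to 60.03 over the 12 rats and was below the filter, its highest value being that of 3-MC rat 1 and its second highest that of vehicle rat 2. Ivl, involucrin of the cornified envelope, ran from 159 to 292 and changed by 0.29 with E2 (95% interval -0.08 to 0.67), which did not pass.

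From a wider list of 33 keratin and cornified envelope genes, 21 were measured and 19 tested, of which 3 rose and 1 fell with E2. Krt16, a type I keratin induced in stressed epidermis, had 284 ± 60.2 in E2 rats and 103 ± 22.9 in vehicle rats (intensity, SD, n = 3 each), a change of 1.33 (adjusted p = 0.0071). Calml3, a calmodulin-like protein of epithelia, had 406 ± 86.8 in E2 rats and 187 ± 30.6 in vehicle rats, a change of 1.04 (adjusted p = 0.0341). Krt23 had 129 ± 26.9 in E2 rats and 57.2 ± 7.67 in vehicle rats, a change of 0.97 (adjusted p = 0.0354). The gene that fell was Klf4, a transcription factor of epidermal barrier formation, with 268 ± 18.6 in E2 rats and 434 ± 30.2 in vehicle rats (change -0.67, adjusted p = 0.0289). The median change over the 21 measured was -0.01. Of 16 hair follicle genes 13 were measured and 9 tested, and 1 rose, Msx2, a homeobox factor (0.73, adjusted p = 0.0358). The hair follicle genes summed to 639 to 745 in E2 + 3-MC rats, 561 to 656 in E2 rats, 571 to 671 in 3-MC rats and 528 to 603 in vehicle rats, with a median change of -0.04 with E2.

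Of the 9 desmosome genes named, 6 were measured and 5 tested. All 5 tested were higher with E2 at an unadjusted p under 0.05 (6.82% of all probe sets), and 1 of them, Dsc2, passed. Dsc2 encodes desmocollin-2, a cadherin of desmosomes in simple and stratified epithelia. Its intensities were 81.8, 63.3 and 78.2 in E2 + 3-MC rats, 92.2, 98.7 and 98.3 in E2 rats, 81.1, 53.0 and 56.2 in 3-MC rats and 58.0, 49.7 and 59.0 in vehicle rats. The E2 rats were closely grouped and lay above every other rat. The rise with E2 was 0.65 ± 0.15 (SE, 1.57-fold, adjusted p = 0.0389), near the fold threshold. Dsc2 was the least stable of the 8, with an adjusted p of 0.0534 to 0.175 without vehicle rat 1, 2 or 3, E2 rat 1, 2 or 3, or E2 + 3-MC rat 1 or 3. The other changes were 0.70 for Perp, a membrane protein needed for desmosome assembly (adjusted p = 0.0809), 0.47 and 0.39 for the plakophilins Pkp1 and Pkp3, and 0.28 for plakoglobin (Jup). Dsc3 ran from 21.2 to 48.6, below the filter.

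In the group of basement membrane adhesion genes 0 of 6 passed with E2 in limma, the count at an unadjusted p under 0.05 was also 0, and so was that of the methods' t-test. Their changes were 0.02 to 0.32 and their median 0.07. The integrin chains Itga6 and Itgb4, which form the hemidesmosome receptor for laminin, had changes of 0.04 (95% interval -0.24 to 0.31) and 0.04 (-0.30 to 0.38). For the laminin chain Lama3 the change was 0.10, for Lamb3 0.29, for the collagen receptor chain Itga2 0.02 and for the hemidesmosomal collagen Col17a1 0.32. Intensities over the 12 rats ran from 67.7 for Lamb3 in 3-MC rat 3 to 884 for Itga6 in E2 rat 1. Of 12 further junction genes 7 were measured and 0 passed with E2. At an unadjusted p under 0.05, 2 were higher (6.82% of all probe sets). The largest changes were 0.72 for the plakophilin Pkp2 (adjusted p = 0.194) and 0.45 for the laminin chain Lama5 (adjusted p = 0.103).

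Among the regulators, Egr2 rose with E2, and Trp63, which encodes p63, did not pass. Egr2 is a zinc finger transcription factor that is known from the hindbrain, Schwann cells and myeloid cells. Its intensities were 210.5, 269 and 206 in E2 + 3-MC rats, 470.3, 384 and 241 in E2 rats, 159.9, 118 and 224 in 3-MC rats and 102, 93.8 and 168 in vehicle rats. All E2 and all E2 + 3-MC rats were above all vehicle rats, E2 rat 3 lay below E2 + 3-MC rat 2, and the 3-MC rats overlapped the vehicle rats. The rise of Egr2 with E2 was 1.46 ± 0.26 (SE, 2.76-fold, adjusted p = 0.0155), the largest among the measured genes of the set. It was 1.26 to 1.40 with an adjusted p of 0.0521 to 0.0872 without vehicle rat 1 or 2 or E2 rat 1 or 2. The change with E2 + 3-MC against vehicle was 0.86 ± 0.26 (SE, adjusted p = 0.388).

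Markers of the other cell types that contain Egr2 were measured beside it. Of the 6 Schwann cell genes measured, 5 were tested and 0 passed with E2. At an unadjusted p under 0.05, 1 was higher and 3 lower (6.82% and 4.89% of all probe sets). The 6 genes summed to 2928 to 4579 in E2 + 3-MC rats, 2885 to 3723 in E2 rats, 4109 to 4596 in 3-MC rats and 3977 to 5383 in vehicle rats. The 6 myeloid genes, of which 1 rose with E2 (Cd14, a receptor for bacterial lipopolysaccharide), summed to 4565 to 8099 in E2 + 3-MC rats, 3536 to 4225 in E2 rats, 4063 to 7455 in 3-MC rats and 2636 to 6444 in vehicle rats. The median change with E2 was -0.41 over the 6 Schwann cell genes measured and -0.36 over the myeloid genes, with single genes from -0.56 to 0.37 and from -0.66 to 0.84. The part of these cells in the Egr2 result was not tested. No marker was at 0, since array signals have a background.

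Sequences around the start sites of Lgals7 and Egr2 are given since these were, with Krt18 and Dsc2, the genes that rose for which a promoter window was used, marked with the same motifs as above.
Lgals7, chr1:93277524-93277823, plus strand: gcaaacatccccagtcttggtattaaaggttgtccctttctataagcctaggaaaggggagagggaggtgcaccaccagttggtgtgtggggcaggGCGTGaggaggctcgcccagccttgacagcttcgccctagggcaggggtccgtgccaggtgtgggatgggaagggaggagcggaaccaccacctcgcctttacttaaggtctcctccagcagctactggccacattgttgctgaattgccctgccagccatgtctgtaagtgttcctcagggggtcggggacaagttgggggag
Egr2, chr20:21054392-21054691, minus strand: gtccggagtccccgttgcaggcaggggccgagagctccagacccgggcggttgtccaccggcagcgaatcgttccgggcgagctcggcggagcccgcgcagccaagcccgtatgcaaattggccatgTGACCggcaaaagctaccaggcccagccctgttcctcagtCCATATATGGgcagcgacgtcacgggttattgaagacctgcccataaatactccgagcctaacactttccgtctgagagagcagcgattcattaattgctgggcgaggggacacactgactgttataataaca
The Lgals7 window holds 1 GCGTG match at position -154. The Egr2 window holds 1 GGTCA match at position -123, read on the opposite strand, and 1 CArG box at position -83. It was the only one of the 26 windows with an exact match to the CArG box. The windows of Dsc2 and Acta2 hold no exact match to these motifs. The Acta2 window does hold ccctatatgg and ccttgtttgg, each 1 base away from the CArG box, and such near matches were not counted for any gene.

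Trp63 had intensities of 286, 192 and 168 in E2 + 3-MC rats, 410.1, 428 and 282 in E2 rats, 213, 182 and 154 in 3-MC rats and 214, 252 and 230.0 in vehicle rats. The E2 rats were above the vehicle rats without overlap, E2 rat 3 lay just below E2 + 3-MC rat 1, and all 3-MC rats lay below the vehicle rats. The change with E2 was 0.63 ± 0.20 (SE, adjusted p = 0.168). Trim29, a protein of basal epithelia, differed by 0.69 (adjusted p = 0.0984), and passed at 0.90 (adjusted p = 0.0272) without vehicle rat 2. Snai2, a repressor of luminal genes in basal cells, differed by 0.30 and Sox10, a factor of mammary progenitors, Schwann cells and melanocytes, by 0.14, neither passing. The 4 measured melanocyte markers summed to 401 to 428 in E2 rats and 380.4 to 445 in vehicle rats.

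St14, which encodes the membrane serine protease matriptase, rose with E2 and had the smallest adjusted p of the set. Its intensities were 284, 319 and 275 in E2 + 3-MC rats, 347, 393 and 330.5 in E2 rats, 277, 213 and 267 in 3-MC rats and 132, 191 and 209 in vehicle rats. Every rat given E2, 3-MC or both lay above every vehicle rat, and the E2 rats lay above all others. Its E2 change was 0.97 ± 0.16 (SE, 1.95-fold, adjusted p = 0.0104), and it was 0.90 (adjusted p = 0.0720) without E2 rat 2, the 1 rat whose omission ended the call. With E2 + 3-MC against vehicle St14 differed by 0.69 ± 0.16 (SE, adjusted p = 0.184) and with 3-MC alone by 0.49 ± 0.16 (SE, adjusted p = 0.92).

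With 3-MC alone 0 of the 33 genes passed in limma, as did 0% of all probe sets, and the methods' t-test also gave 0 of 33. At an unadjusted p under 0.05 St14 was higher and Mylk lower (3.06% and 1.18% of all probe sets). St14 alone lay above vehicle in all 3 rats (4.71% of all probe sets), and Krt15, Mylk, Sox10 and Trp63 lay below vehicle in all 3 rats (2.31% of all probe sets). The class medians were 0.15 for luminal keratins, -0.25 for basal keratins and -0.21 for contractile genes, against 0.06 over all probe sets. With 1 rat left out they ranged from 0.0089 to 0.31 for luminal keratins, from -0.50 to -0.04 for basal keratins and from -0.29 to -0.13 for contractile genes. Widest among the intervals of the keratins was that of Krt15, at -1.22 to 0.00.

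On top of E2, 3-MC was accompanied by lower levels of most of these genes, although 0 of 33 passed for E2 + 3-MC against E2 in limma, as did 0% of all probe sets. At an unadjusted p under 0.05, 16 of the 33 were lower and 0 higher, against 2.77% lower and 5.99% higher over all probe sets. In 13 genes every E2 + 3-MC rat lay below every E2 rat (5.93% of all probe sets), and in 0 above (12% of all probe sets). The differences were -1.54 ± 0.28 for Krt15 (SE, unadjusted p = 1e-04, adjusted p = 0.26), -1.10 ± 0.27 for Krt14 (adjusted p = 0.387) and -0.97 ± 0.23 for Krt17 (adjusted p = 0.357). Next were Trp63 at -0.76, Krt8 at -0.67, Egr2 at -0.60, Snai2 at -0.57 and Perp at -0.57, with adjusted p values of 0.397 to 0.552.

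Krt15 and Krt17 passed in this comparison when limma was fitted to these 2 groups alone (adjusted p = 0.0159 and 0.0183) and before adjustment in the methods' t-test (unadjusted p = 0.0200 and 0.0119), whose adjusted form passed 0 genes of the set and 0 of all probe sets. Without E2 rat 3, Krt15 differed by -1.85 (adjusted p = 0.0388). The class medians were -1.10 for basal keratins, -0.57 for regulators, -0.44 for luminal keratins, -0.31 for basement membrane adhesion genes, -0.28 for desmosome genes and -0.21 for contractile genes, against 0.05 over all probe sets. Acta2 differed by 0.00 (95% interval -0.26 to 0.26). Of the 47 further keratin, hair follicle, junction and contractile genes tested, 0 passed in limma for E2 + 3-MC against E2 or for 3-MC against vehicle. At an unadjusted p under 0.05, 2 were higher and 4 lower for E2 + 3-MC against E2 (5.99% and 2.77% of all probe sets). For 3-MC against vehicle, 3 were higher and 1 lower (3.06% and 1.18% of all probe sets). Krt16 and Calml3, which had risen with E2, differed by -0.89 (adjusted p = 0.342) and -0.66 (adjusted p = 0.466) between E2 + 3-MC and E2 rats. The E2 rats are the same as those in which these genes, and the genes of the set that rose, were called. Lower values against them are thus expected in part from that choice. The 13 luminal epithelium markers outside the set summed to 5828 to 7507 in E2 + 3-MC rats, 7673 to 9295 in E2 rats, 4929 to 6265 in 3-MC rats and 4814 to 6271 in vehicle rats, and by the medians of these sums the groups stood in the same order as for the luminal keratins. In the same comparison all 6 mitosis genes were lower without overlap (-1.31 to -0.74), against 5.93% of all probe sets. Of 6 myeloid genes, 4 were higher without overlap (median 0.87 over the 6), against 12% of all probe sets. At an unadjusted p under 0.05, 6 mitosis genes were lower and 3 myeloid genes higher (2.77% and 5.99% of all probe sets). In limma 0 of either list passed. The part of epithelial content, dividing cells and myeloid cells in the results was not tested.

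**Figure D4:**
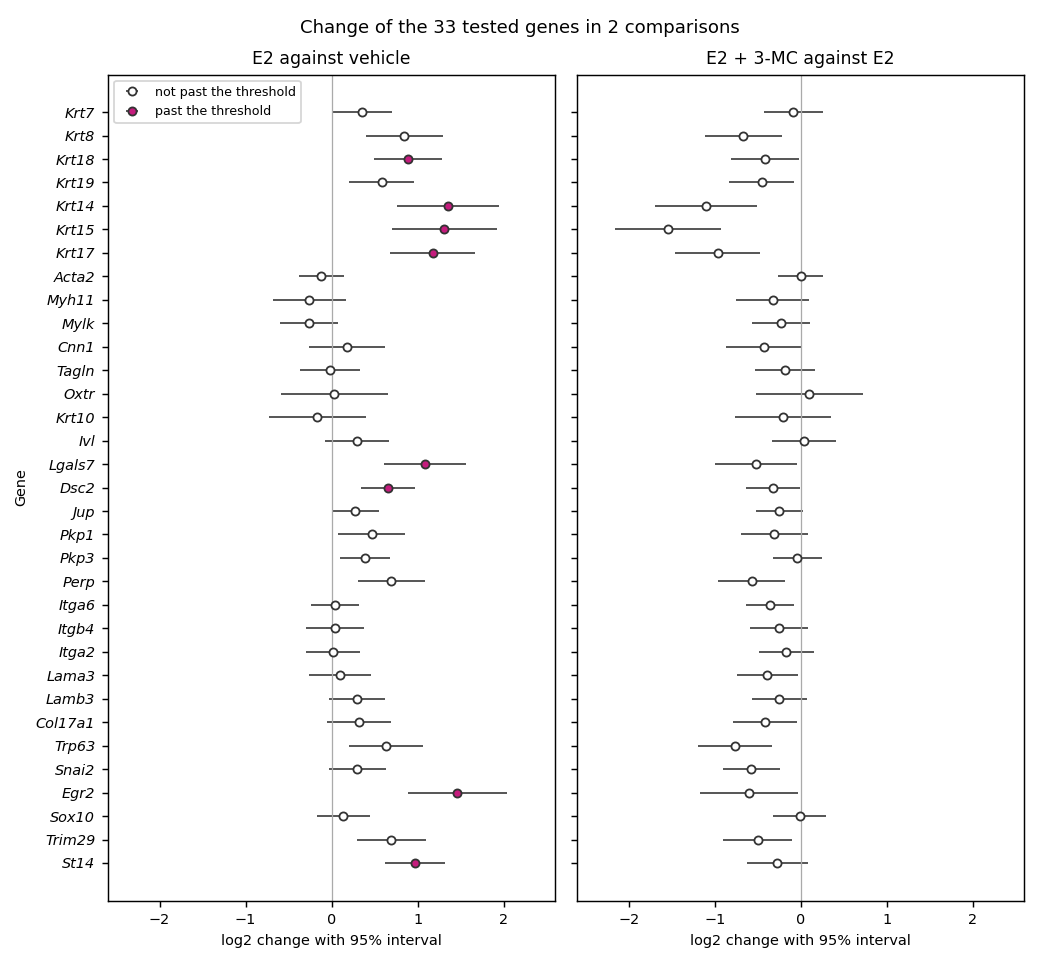
Log2 change (horizontal axis) with its 95% interval of the 33 tested genes (rows) for E2 against vehicle (left) and E2 + 3-MC against E2 (right), with filled points for genes past the threshold. On the left 8 points are filled, all to the right of 0, and on the right no point is filled and 30 of 33 lie to the left of 0.

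In rats given both compounds, 0 of the 33 genes passed against vehicle in limma, against 0.163% of all probe sets, and 0 by the methods' t-test after adjustment (2, Egr2 and St14, without it). At an unadjusted p under 0.05, 6 were higher and 3 lower (6.99% and 2.73% of all probe sets). The 6 were Krt18, Lgals7, Dsc2, Pkp3, Egr2 and St14, and the 3 were the contractile genes Myh11 and Mylk and the integrin Itga6. For the 8 genes that rose with E2, which is compared with the same vehicle rats, the changes with E2 + 3-MC were 0.25 for Krt14, -0.23 for Krt15 and 0.21 for Krt17, then 0.47 for Krt18, 0.57 for Lgals7, 0.33 for Dsc2, 0.86 for Egr2 and 0.69 for St14. All 3 basal keratins overlapped the vehicle rats, whereas Egr2, St14 and Dsc2 lay above vehicle in all 3 rats given both compounds. Such separation from vehicle held for 5 of the 33 genes above and 3 below, against 10.5% and 3.68% of all probe sets.

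Against 3-MC alone, 0 of the 33 genes passed with E2 + 3-MC in limma (0.111% of all probe sets), with the same count of 0 by the methods' t-test, and 2 genes were higher at an unadjusted p under 0.05, Lgals7 and Pkp3 (0.30), and 0 lower (2.81% and 2.22% of all probe sets). The interaction, which asks whether the E2 change differed with and without 3-MC, passed for 0 genes in limma, as it did for 0% of all probe sets. It was negative at an unadjusted p under 0.05 for 8 genes, and positive for 0 (2.83% and 1.59% of all probe sets). These were Krt8 (-0.90 ± 0.29, SE), Krt18 (-0.77 ± 0.26), Krt14 (-0.96 ± 0.39), Krt15 (-0.93 ± 0.40), Krt17 (-0.72 ± 0.32), Dsc2 (-0.46 ± 0.21), Egr2 (-1.02 ± 0.37) and St14 (-0.76 ± 0.23), each with an adjusted p of 0.982. Of the 8 genes that rose with E2 it left out Lgals7, at -0.24 ± 0.31 (SE), and the interaction uses the same E2 and vehicle rats as the E2 change.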

How the data were processed

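Whole mammary gland RNA of 12 rats was hybridized to 1 Affymetrix Rat Gene 1.0 ST array each. The authors summarized the probe signals to linear intensity values per probe set with PLIER in Affymetrix Expression Console. The methods also name quantile normalization and scaling to the controls, but the deposited intensities have unequal array medians and are not centred on vehicle, and they were used as they are, without background correction here. All 12 value columns were mapped to a rat through the sample labels.

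After adding 16, log2 was taken. Probe sets at or below the 20th percentile of mean log2 value were left out, and the other 23371 of 29214 entered limma 3.58.1 in R 4.3.3, in 1 model of 4 group means (lmFit, contrasts.fit, eBayes, two-sided). The filter, the Benjamini-Hochberg adjustment and the 1.5-fold limit follow the methods, which used an unpaired t-test. Low signals understate a change, because 16 is included in it. The procedure was tested on simulated data. An annotation of the array gave 1 symbol to 15310 probe sets, several to 323 and none to 13581, and Trp63 is listed there as Tp63 and was matched through its Entrez ID. Gene positions and promoter windows are those of RefSeq on GRCr8. Figures were drawn with matplotlib 3.10.9 in Python 3.11.15.

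The genes, their classes and the further lists were chosen with earlier results of these data known, so no p was computed for a class or a list. Values of each rat are printed for genes past the threshold in a comparison, luminal and basal keratins, contractile genes, Trp63 and the epidermal genes of highest signal or spread (Lgals7 by both, and Krt10 added after its values were seen). Of the further lists, up to 4 genes with the largest change past the threshold are named, or the 2 with the largest change where none passed.

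Rats carry numbers 1 to 3 in each group. Deviations from the group means correlated between same-numbered 3-MC and vehicle rats at 0.341, 0.442 and 0.564, all above 0.1, so their numbers were taken as pairs, which rests on the array values and on no label. The skeletal muscle level was 1.17, 1.64 and -3.81 in 3-MC rats 1, 2 and 3 and 1.83, 2.22 and -3.96 in vehicle rats. The part of this tissue in the correlations was not tested. The values printed come from the model without pairs, and the block changed no call for 3-MC against vehicle. In the other pairs of groups at least 1 correlation was below 0.1. The alternatives were other filters (the 50th percentile, any array or none), a pseudocount of 1 or 32, quantile normalization, centring on array medians, limma on 2 groups or on 1 probe set for each gene, trend and robust fits, array weights, a block of rat numbers in 12 arrays or, added after seeing the data, in 6, a 2-fold limit or none, treat, the methods' t-test (adjusted or not), and omission of each rat in turn, when a group of 2 rats takes its spread from the pooled estimate. The number of arrays limits the precision.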

Additional observations from a re-analysis of the deposited data

How the results depend on the processing

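For the 54 changes of single genes with an unadjusted p under 0.05, no direction reversed across 31 alternatives. Of 1584 such values, 1495 stayed on their side of the threshold, 63 lost it and 26 gained it. With E2, 8 genes of the set passed, and 2 (Krt14 and Lgals7) with a replicate block in 6 arrays, 5 with a 2-fold limit, and 0 with treat or with the methods' t-test after adjustment. Leaving out 1 rat gave 0 to 9 genes. The replicate block in 12 arrays gave 9. For E2 + 3-MC against E2, where 0 passed, limma on 2 groups gave 2 (Krt15 and Krt17), the replicate block in 6 arrays 5 (Krt8, Krt14, Krt15, Krt17 and Trp63), the unadjusted t-test 2, and omission of a rat 0 to 1. These samples share only a number, although 6 of 6 arrays correlated best with their own number in this pair of groups. For E2 + 3-MC against vehicle the unadjusted t-test gave 2 and all other settings 0, and for E2 + 3-MC against 3-MC omission of a rat gave 0 to 1. The block, under which 3-MC and vehicle rats were taken as pairs, gave 0 there as well, and for the interaction every setting that was run gave 0.

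Of 119 other changes of single genes, in 5 comparisons, 44 changed sign when 1 rat was left out, each of 0.23 or less in size, among them Krt15 for E2 + 3-MC against vehicle (-0.23, and 0.0069 without E2 + 3-MC rat 2) and Tagln with E2 (-0.02, and 0.13 without E2 rat 3). Class medians changed sign in 25 of 714 cases, all from medians of 0.13 or less in size. They moved by over 1 SD in 3 cases, each with 1 rat left out. They ranged from -0.29 to 0.18 for epidermal genes with 3-MC, from 0.072 to 0.26 for desmosome genes with E2 + 3-MC against vehicle and from 0.092 to 0.28 for these against 3-MC.

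Over all probe sets the E2 count was 370, and 652 with array weights, 207 with a block in 6 arrays, 205 at 2-fold, 24 with treat, and 7 and 703 with the adjusted and unadjusted t-test, and 89 (without E2 rat 2) to 449 (without 3-MC rat 2) with 1 rat left out. For E2 + 3-MC against E2 it was 0, and 359 with limma on 2 groups, 697 with a block in 6 arrays and 486 with the unadjusted t-test. The cause was not tested. The 3 arrays a group limit the precision.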
